A study of Mus musculus with 6 samples.

Results

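The glycolysis and hypoxia-induced genes were a set of 37 named genes: glucose and lactate transporters, the enzymes of glycolysis, the enzymes that set the level of fructose-2,6-bisphosphate, the enzymes at the branch between lactate and the citric acid cycle, HIF-1alpha with its prolyl hydroxylases, and further genes induced when oxygen is short. A member was taken as measured where a probe annotated with that single symbol was on the array, and where several such probes existed the brightest was used. By this rule 35 of the 37 members were measured, out of 19938 genes measured in the same way. Gpi1 and Eno1 had no probe of their own and were not analysed here. The values came from N2A cells, a mouse neuroblastoma line, transiently transfected with plasmids that express either a short hairpin RNA (shRNA) against Pbcas4 or a scrambled hairpin. Pbcas4 is the mouse transcribed pseudogene of the human protein-coding gene BCAS4. There were 3 cultures that received the Pbcas4 shRNA and 3 that received the scramble construct, each harvested 72 h after transfection with 4 µg of construct per well, and each was hybridised to 1 Affymetrix Mouse Gene 1.0 ST array. No condition in the series altered oxygen or glucose, and both groups carried a transfected hairpin, so that the comparison was between hairpins rather than with untransfected cells. Pbcas4 was not named in the probe annotation, so its level on these arrays was not analysed here.

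Glycolysis splits glucose into pyruvate in the cytosol, and cells with little oxygen turn that pyruvate into lactate to keep the pathway running. The transcription factor HIF-1, made of HIF-1alpha and ARNT, couples the pathway to oxygen: prolyl hydroxylases mark HIF-1alpha for destruction while oxygen is present, and without oxygen the protein persists, binds hypoxia response elements and raises transcription of glucose transporters, most glycolytic enzymes, Vegfa, Bnip3 and its own hydroxylase Egln3. The core of such an element is ACGTG or GCGTG. Neuroblastoma cells, like other tumour cells, are known for a high rate of glycolysis also in the presence of oxygen.

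The promoters of 5 members are printed because the results turn on 4 of them, Aldoc, Eno2, Bnip3 and Egln3, and because Ldha is a textbook target of HIF-1 whose signal hardly differed between constructs. Each is the 250 bases before the first start site listed in RefSeq for mouse build GRCm38.p6, read 5′ to 3′ on the gene's strand. Capitals mark ACGTG or GCGTG on either strand (CACGT or CACGC where the match is on the other strand), with overlapping matches joined to 1 stretch. The windows are chr11:78322823-78323072 on the plus strand for Aldoc, chr6:124769674-124769923 on the minus strand for Eno2, chr7:138909507-138909756 on the minus strand for Bnip3, chr12:54203875-54204124 on the minus strand for Egln3 and chr7:46845554-46845803 on the plus strand for Ldha.
Aldoc: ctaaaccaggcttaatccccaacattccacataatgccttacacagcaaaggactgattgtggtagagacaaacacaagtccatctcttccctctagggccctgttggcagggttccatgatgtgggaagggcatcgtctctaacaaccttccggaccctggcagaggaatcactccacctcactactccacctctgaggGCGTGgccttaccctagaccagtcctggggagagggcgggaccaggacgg
Eno2: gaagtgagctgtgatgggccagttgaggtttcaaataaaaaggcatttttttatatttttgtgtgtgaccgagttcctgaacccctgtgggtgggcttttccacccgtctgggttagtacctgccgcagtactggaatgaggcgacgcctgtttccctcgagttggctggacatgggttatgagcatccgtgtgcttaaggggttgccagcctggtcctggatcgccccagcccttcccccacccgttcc
Bnip3: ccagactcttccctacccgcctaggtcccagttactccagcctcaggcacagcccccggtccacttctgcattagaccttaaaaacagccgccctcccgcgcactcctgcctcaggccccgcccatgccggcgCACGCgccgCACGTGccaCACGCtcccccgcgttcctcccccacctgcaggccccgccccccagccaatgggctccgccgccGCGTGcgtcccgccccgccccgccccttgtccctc
Egln3: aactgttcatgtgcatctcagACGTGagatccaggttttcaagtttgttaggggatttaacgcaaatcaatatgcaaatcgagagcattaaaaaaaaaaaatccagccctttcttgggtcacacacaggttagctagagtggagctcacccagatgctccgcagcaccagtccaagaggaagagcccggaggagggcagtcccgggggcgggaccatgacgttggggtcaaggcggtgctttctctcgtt
Ldha: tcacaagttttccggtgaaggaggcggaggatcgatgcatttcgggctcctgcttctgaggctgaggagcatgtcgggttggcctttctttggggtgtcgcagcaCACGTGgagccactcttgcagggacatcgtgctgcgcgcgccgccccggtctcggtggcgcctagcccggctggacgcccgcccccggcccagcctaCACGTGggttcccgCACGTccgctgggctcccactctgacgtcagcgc
Bnip3 held 4 such stretches and Ldha 3, against 1 each in Aldoc and Egln3 and 0 in Eno2. Of the 32 measured members with a promoter in the table, 25 (78.1%) held ACGTG or GCGTG in this window, against 38.6% of the 27025 genes in the table. For ACGTG alone the shares were 53.1% of the members and 16.6% of all genes. These are matches of letters, without evidence that a factor binds there. Many members were listed because they are known targets of HIF-1, so the shares describe the choice of genes and not these arrays. The genes in the table were not matched to the members by base composition or signal.

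No member was called differentially expressed by limma, for which both an adjusted p under 0.05 and a log2 difference over 0.5 in size were required (0 of 35 members, against 0.00% of all genes), and the lowest adjusted p of a member was 0.359, for Egln3. Without adjustment 5 members lay lower in Pbcas4 shRNA cells at p under 0.05 (14.3% of members, against 5.46% of all genes) and 2 lay higher (5.71%, against 6.22% of all genes). The 5 were the aldolase Aldoc, the neuronal enolase Eno2, the triose phosphate isomerase Tpi1, the bifunctional enzyme Pfkfb4 and the collagen prolyl hydroxylase subunit P4ha2, and the 2 were Pfkfb3 and Egln3. The mean was lower in shRNA cells for 24 of 35 members (68.6%), against 49.0% of all genes. Taken as shRNA minus scramble, the log2 differences had a median of -0.14 over the members and 0.00 over all genes. Mean differences below -0.5 were found for 4 members (11.4%, against 2.81% of all genes), namely Aldoc, Eno2, Bnip3 and Bnip3l, and a difference above 0.5 for 1 member, Egln3 (2.86%, against 2.67% of all genes).

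**Figure D1:**
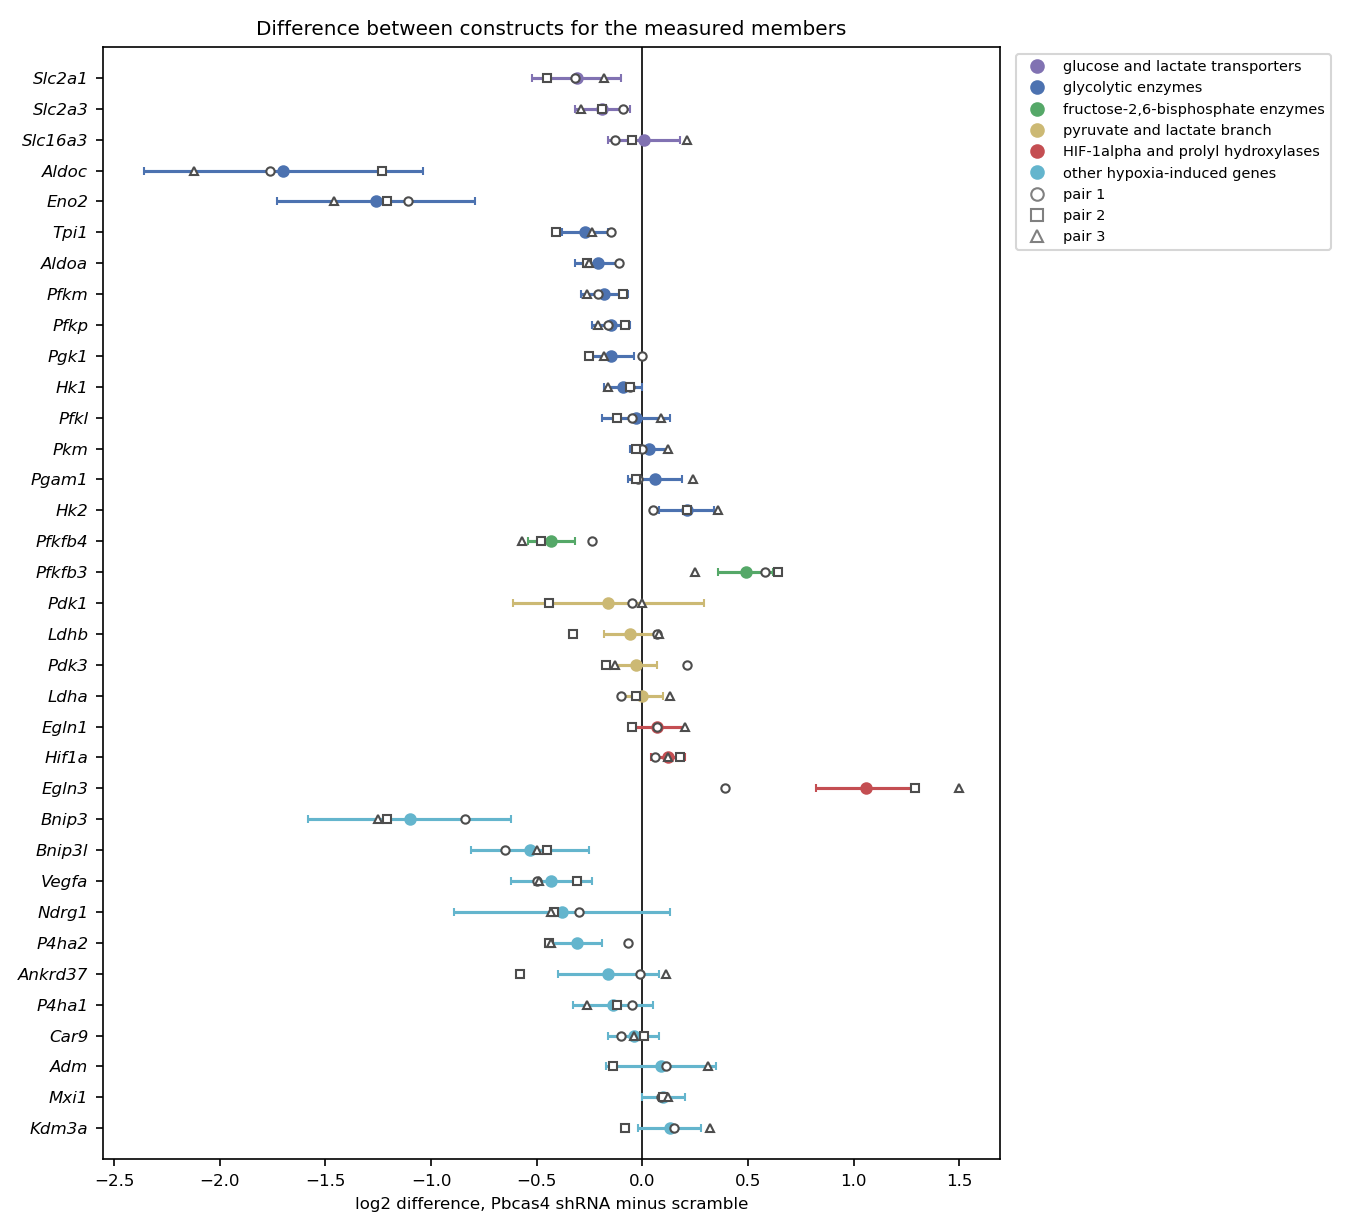
Log2 difference, Pbcas4 shRNA minus scramble, for each of the 35 measured members. Filled points are the difference of the group means (n = 3 arrays each) with bars of 1 standard error from limma, open symbols are the differences within each of the 3 same-number pairs, and colours mark the role; Aldoc, Eno2 and Bnip3 lie farthest to the left (-1.70, -1.26 and -1.10) and Egln3 farthest to the right (1.06).

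Transporters bring glucose in and carry lactate out. Slc2a1, the widely expressed glucose transporter GLUT1, had normalised log2 signals of 11.68, 12.19 and 11.89 in shRNA replicates 1, 2 and 3, against 12.00, 12.63 and 12.06 in the scramble replicates. The groups overlapped, and the difference of -0.31 was within the spread between replicates (SE 0.21, limma adjusted p = 0.695). For the neuronal glucose transporter Slc2a3 (GLUT3) the difference was -0.19, and for the lactate exporter Slc16a3 (MCT4) it was 0.01. Slc2a1 and Slc2a3 were lower in the shRNA array of all 3 same-number pairs.

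Among the 12 measured glycolytic enzymes, 9 means were lower and 3 higher in shRNA cells, with a median log2 difference of -0.15. Aldoc, the aldolase isoform of brain, carried the largest difference of any member. Its log2 signals were 8.57, 10.82 and 9.69 in shRNA replicates 1 to 3, against 10.33, 12.05 and 11.81 in scramble replicates 1 to 3. The shRNA arrays were lower on average, yet the groups overlapped, since shRNA replicate 2 lay above scramble replicate 1. The means were 9.69 ± 1.12 in shRNA cells and 11.39 ± 0.93 in scramble cells (SD, n = 3 each), a difference of -1.70 (SE 0.66) that corresponds to a signal ratio of 0.307. The limma adjusted p was 0.469 (unadjusted 0.0382), and of the 19938 genes 1 had a more negative difference.

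Eno2, the neuron-specific enolase, followed the same course over the arrays. It had log2 signals of 9.50, 10.87 and 10.23 in shRNA replicates and 10.61, 12.08 and 11.68 in scramble replicates. Here too shRNA replicate 2 exceeded scramble replicate 1, while the shRNA array was the lower one in each same-number pair, by -1.11, -1.21 and -1.46. The mean difference was -1.26 (SE 0.47), a ratio of 0.418, with a limma adjusted p of 0.461 (unadjusted 0.0324), and 12 genes had a more negative difference. The 3 pair differences of Aldoc were -1.76, -1.23 and -2.12.

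Tpi1 interconverts the triose phosphates that aldolase releases. Its signals were 13.43, 13.50 and 13.42 in shRNA cells, against 13.57, 13.91 and 13.66 in scramble cells. All shRNA values lay below all scramble values, and the exact permutation test (two-sided) had p = 0.1, the smallest value that 3 against 3 arrays allow. The difference was small, -0.27 (SE 0.11, limma adjusted p = 0.485).

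The other 9 measured enzymes differed by -0.21 to 0.21. Aldoa, the muscle-type aldolase that most cells use, had a mean of 13.64 ± 0.08 in shRNA cells and 13.85 ± 0.16 in scramble cells (SD, n = 3 each), a difference of -0.21. The phosphofructokinase subunits Pfkl, Pfkm and Pfkp differed by -0.03, -0.18 and -0.15. Pgk1, the first ATP-yielding kinase of the pathway, differed by -0.15, and the last one, Pkm, by 0.03. The mutase Pgam1 differed by 0.06, and of the hexokinases that trap glucose in the cell Hk1 differed by -0.09 and Hk2 by 0.21. None of these 9 genes reached an unadjusted p under 0.05, and the lowest limma adjusted p among them was 0.595, for Aldoa. A second, dimmer Hk1 probe gave -0.24 (unadjusted p = 0.0400). Pgk1, Pgam1 and Pkm were each named by several probes with near-identical values, and their signal may be shared with copies or pseudogenes.

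**Figure D2:**
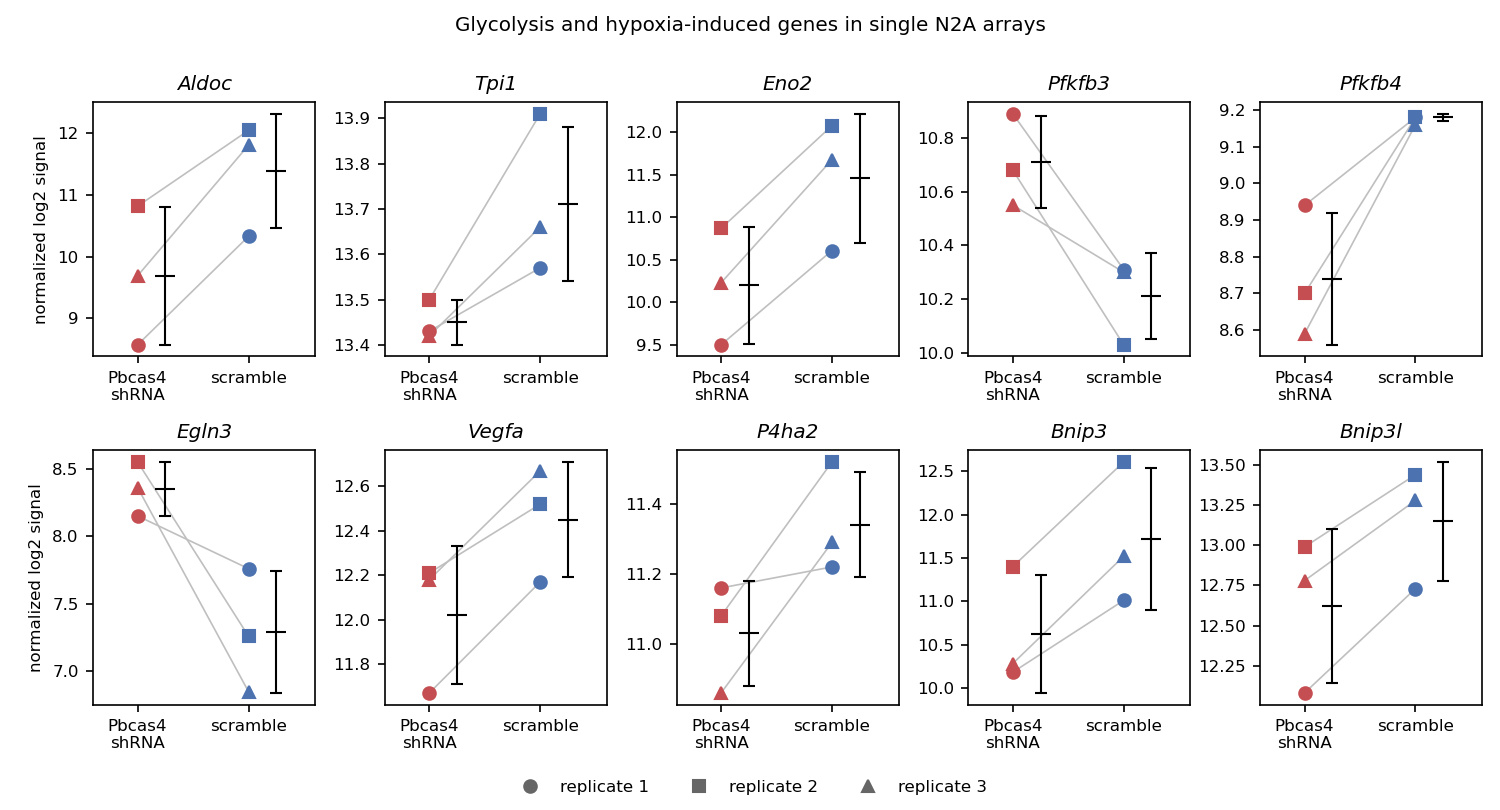
Normalised log2 signal of the 10 members given in full, one panel each with its own axis: red points are Pbcas4 shRNA arrays, blue points scramble arrays, the symbol gives the replicate number, grey lines join same-number arrays, and black bars show the mean and SD (n = 3). Lines slope the same way in all 3 pairs of every panel, while the groups overlap in Aldoc, Eno2, Vegfa, Bnip3 and Bnip3l. The panels were chosen from these values for low p, non-overlap or large differences, and groups without overlap must slope one way. Among all genes 18.0% were lower and 19.4% higher in shRNA in all 3 pairs.

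Fructose-2,6-bisphosphate is the main activator of phosphofructokinase, and bifunctional kinase and phosphatase enzymes set its level. Of the 3 measured genes for them, the members Pfkfb3 and Pfkfb4 had group values without overlap, in opposite directions. The third, Pfkfb2, which is not among the members, had overlapping groups, with means of 9.06 ± 0.15 in shRNA cells and 9.03 ± 0.17 in scramble cells (SD, n = 3 each), a difference of 0.03 (SE 0.13, limma adjusted p = 0.979). Pfkfb3, the isoform with the strongest kinase activity, had log2 signals of 10.89, 10.68 and 10.55 in shRNA cells, against 10.31, 10.03 and 10.30 in scramble cells. Every shRNA array was above every scramble array. The difference was 0.49 (SE 0.13), a ratio of 1.41, with pair differences of 0.58, 0.64 and 0.25 and a limma adjusted p of 0.383 (unadjusted 0.00701). Pfkfb4, which HIF-1 also induces, had 8.94, 8.70 and 8.59 in shRNA cells, against 9.18, 9.18 and 9.16 in scramble cells. All shRNA values were below the scramble values, which hardly varied. The difference was -0.43 (SE 0.11), a ratio of 0.742, with a limma adjusted p of 0.379 (unadjusted 0.00592). In the exact permutation test Pfkfb3 and Pfkfb4 were at the smallest possible p of 0.1.

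The genes that decide the fate of pyruvate showed little difference. Ldha, the lactate dehydrogenase subunit that favours lactate production, had signals of 14.07, 14.12 and 14.06 in shRNA cells, against 14.18, 14.15 and 13.93 in scramble cells. The groups overlapped fully, and the difference was 0.00 with an SE of 0.10 (limma adjusted p = 0.999). These values lay close to the top of the scale, since the brightest probe of each array read 14.83 to 14.97. Pdk1, a kinase that switches off pyruvate dehydrogenase and so keeps pyruvate out of mitochondria, had 6.97, 7.98 and 7.05 in shRNA cells, against 7.02, 8.43 and 7.05 in scramble cells. In both groups replicate 2 was the high array, and the construct difference of -0.16 was far smaller than that spread (SE 0.45). The Pdk1 means of 7.33 in shRNA cells and 7.50 in scramble cells were dim, and only replicate 2 exceeded the array medians. Pdk3, a further such kinase, differed by -0.03 and the subunit Ldhb by -0.06. Both were dim, with means of 5.41 and 6.96 in shRNA cells and 5.44 and 7.02 in scramble cells, below the array medians of 7.75 to 7.86, and a second Ldhb probe gave 0.23 (unadjusted p = 0.0409).

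The oxygen-sensing members had higher means in shRNA cells. Egln3, the prolyl hydroxylase PHD3, is itself a HIF-1 target and acts on HIF-1alpha. Its log2 signals were 8.15, 8.55 and 8.36 in shRNA cells, against 7.76, 7.26 and 6.85 in scramble cells. All 3 shRNA arrays exceeded all 3 scramble arrays, and scramble replicate 1 was the closest to them. The means were 8.35 ± 0.20 in shRNA cells and 7.29 ± 0.45 in scramble cells (SD, n = 3 each), a difference of 1.06 (SE 0.24) or a ratio of 2.09. The limma adjusted p was 0.359 (unadjusted 0.00314), the exact permutation p was 0.1, and 12 of the 19938 genes had a higher difference. The pair differences of 0.39, 1.29 and 1.50 had one direction but not one size. All 3 scramble values were dim, under the median of their arrays.

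Hif1a, which encodes the oxygen-regulated subunit, is controlled chiefly at the level of its protein, which arrays do not measure. Its transcript read 12.96, 12.98 and 12.96 in shRNA cells, against 12.91, 12.81 and 12.84 in scramble cells. The groups did not overlap, yet the difference was only 0.12 (SE 0.08, limma adjusted p = 0.692). Egln1 (PHD2), the main HIF-1alpha hydroxylase at normal oxygen, differed by 0.07 (SE 0.13).

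Of the 11 other hypoxia-induced genes, 8 had lower and 3 higher means in shRNA cells, with a median log2 difference of -0.16. Bnip3 encodes a mitochondrial protein that recruits the autophagy machinery to remove mitochondria. Its log2 signals were 10.18, 11.40 and 10.28 in shRNA cells, against 11.01, 12.61 and 11.52 in scramble cells. Replicate 2 was the high array in both groups, so the groups overlapped, while each shRNA array was below its same-number scramble array, by -0.84, -1.21 and -1.25. The difference was -1.10 (SE 0.48), a ratio of 0.468, with a limma adjusted p of 0.512 (unadjusted 0.0595), and 31 genes had a more negative difference. A second Bnip3 probe gave -1.16.

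Its paralog Bnip3l (Nix) acts in the same removal of mitochondria. It had 12.08, 12.99 and 12.78 in shRNA cells, against 12.73, 13.44 and 13.28 in scramble cells. The order of the arrays was the same in both groups, with replicate 1 lowest and replicate 2 highest. The difference was -0.53 (SE 0.28, limma adjusted p = 0.597), and a second probe gave -0.55. Signal shared with near-identical copies of either gene could not be separated.

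Vegfa, the secreted factor that drives growth of blood vessels, had 11.67, 12.21 and 12.18 in shRNA cells, against 12.17, 12.52 and 12.67 in scramble cells. Replicate 1 was lowest in both groups, and the values overlapped. The difference was -0.43 (SE 0.19, limma adjusted p = 0.520), with pair differences of -0.50, -0.31 and -0.49. P4ha2, a catalytic subunit of the enzyme that hydroxylates collagen, had 11.16, 11.08 and 10.86 in shRNA cells, against 11.22, 11.52 and 11.29 in scramble cells. Its groups did not overlap, although shRNA replicate 1 came within 0.07 of scramble replicate 1, and the difference was -0.31 (SE 0.12, limma adjusted p = 0.474, exact permutation p = 0.1).

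Ndrg1, a stress-induced gene linked to growth arrest and differentiation, varied more between replicates than between constructs. It had 8.87, 10.36 and 9.87 in shRNA cells, against 9.18, 10.78 and 10.30 in scramble cells. The mean difference was -0.38 with an SE of 0.51, whereas the pair differences were -0.30, -0.42 and -0.43. The remaining 6 differed by -0.16 to 0.13: Ankrd37, an ankyrin repeat gene, by -0.16, the other collagen hydroxylase subunit P4ha1 by -0.14, the carbonic anhydrase Car9 by -0.04, the vasoactive peptide Adm by 0.09, the MYC antagonist Mxi1 by 0.10 and the histone demethylase Kdm3a by 0.13. Car9 and Adm, often used as readouts of hypoxia, had means below the array medians in both groups, as 6 of the 35 members did over the 6 arrays.

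Non-overlap of the groups was about as frequent among the members as among all genes. All shRNA arrays were below all scramble arrays for 3 members, Tpi1, Pfkfb4 and P4ha2 (8.57%, against 7.63% of all genes), and above them for 3, Pfkfb3, Hif1a and Egln3 (8.57%, against 9.13% of all genes). Within same-number pairs the counts were further apart. The shRNA array was lower in all 3 pairs for 16 members (45.7%, against 18.0% of all genes) and higher in all 3 for 5 members (14.3%, against 19.4% of all genes). The 16 were Slc2a1, Slc2a3, Hk1, Pfkm, Pfkp, Aldoa, Aldoc, Tpi1, Eno2, Pfkfb4, Vegfa, Ndrg1, P4ha1, P4ha2, Bnip3 and Bnip3l, and the 5 were Hk2, Pfkfb3, Hif1a, Egln3 and Mxi1. The median pair difference over the members was -0.06, -0.14 and -0.13 in pairs 1, 2 and 3, against 0.05, -0.03 and -0.01 over all genes.

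Many members shared a pattern over the arrays that did not follow the construct, chosen for description after the values were seen. Replicate 2 held the highest signal in both groups for 20 members (57.1%, against 8.56% of all genes), and replicate 1 the lowest signal in both groups for 15 (42.9%, against 19.3% of all genes). The first was also found in 11 of 32 measured further hypoxia-induced genes outside the members (34.4%) and the second in 12 of them (37.5%), so that neither was particular to the members. Both held at once for 11 members (31.4%, against 4.64% of all genes), which were Slc2a1, Pfkp, Aldoa, Aldoc, Eno2, Pdk1, Ndrg1, P4ha1, Mxi1, Bnip3 and Bnip3l, and for 6 of those 32 further genes (18.8%). The mean log2 signal over the 35 members was 10.81, 11.15 and 10.92 in shRNA replicates 1 to 3, and 10.96, 11.36 and 11.07 in scramble replicates 1 to 3. Over all genes these means were 8.64 to 8.65 in shRNA cells and 8.64 to 8.66 in scramble cells. What the arrays numbered 2 shared is not given in the labels, and their part in the results was not tested.

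**Figure D3:**
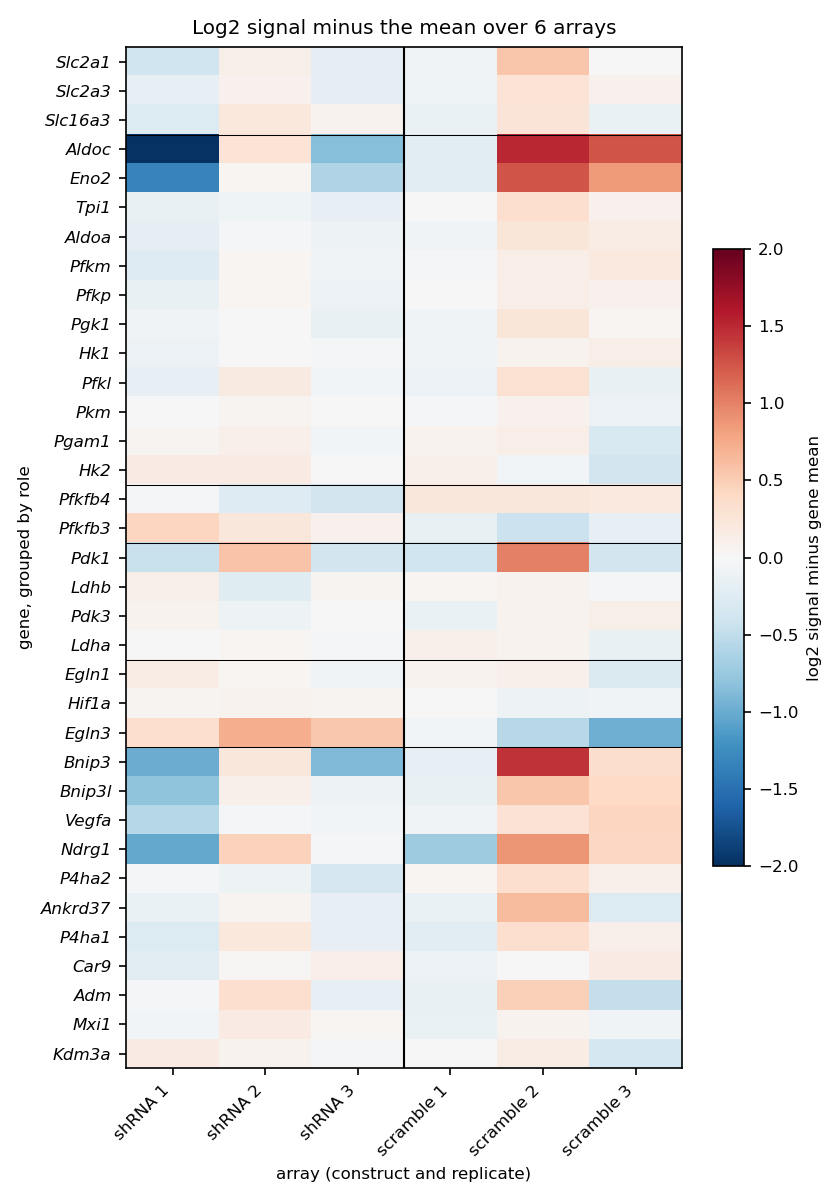
Log2 signal of each member in each array minus that gene's mean over the 6 arrays, with shRNA arrays left and scramble arrays right and genes ordered by role. Red is above and blue below the gene's mean; scramble replicate 2 is reddest and shRNA replicate 1 bluest for Aldoc, Eno2 and Ndrg1, and Egln3 runs opposite between the groups.

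With the replicate number as a block, which sets aside what same-number arrays share, 10 members lay lower at unadjusted p under 0.05 (28.6%, against 7.35% of all genes) and 2 lay higher (5.71%, against 7.20% of all genes). Beside the 5 named above, these were Slc2a1, Vegfa, Ndrg1, Bnip3 and Bnip3l. The SE shrank to 0.18 for Aldoc, 0.11 for Eno2 and 0.12 for Bnip3, and each of these 3 genes had an adjusted p of 0.230, so that no member passed in this fit either.

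Single arrays moved the counts. Without scramble replicate 1, 14 members had all shRNA arrays below all scramble arrays (40.0%, against 19.7% of all genes), and 9 lay lower at unadjusted p under 0.05 (25.7%, against 8.03% of all genes). Without shRNA replicate 2, 11 members had no overlap in that direction (31.4%, against 12.9% of all genes). That setting left 4 members lower at unadjusted p under 0.05 (11.4%, against 5.97% of all genes). The count was 2 without shRNA replicate 1 (5.71%, against 4.81% of all genes), and 1 (2.86%) when shRNA replicate 3, scramble replicate 2 or scramble replicate 3 was left out, against 3.14%, 2.88% and 3.13% of all genes. Without scramble replicate 2, 5 members lay above without overlap (14.3%, against 11.4% of all genes). Without both arrays of replicate 1, 8 members lay lower at unadjusted p under 0.05 (22.9%, against 8.94% of all genes) and 15 lay below without overlap (42.9%, against 29.2% of all genes). Centring each array on its median left 3 members lower at that p (8.57%, against 3.68% of all genes). Among the brighter probes, which did not hold the dim Egln3, 1 of 29 members lay higher (3.45%, against 10.1% of 11454 genes). The median log2 difference of the members was -0.04 without scramble replicate 2 and -0.06 without shRNA replicate 1. For the other hypoxia-induced genes it was -0.04 without either of these arrays, and -0.29, -0.29 and -0.28 without shRNA replicate 2, scramble replicate 1 and scramble replicate 3. With limma array weights 6 members were called (17.1%, against 6.62% of all genes in either direction), and 15 lay lower at unadjusted p under 0.05 (42.9%, against 15.1% of all genes). That fit gave shRNA replicate 3 a weight of 5.32 and scramble replicate 1 a weight of 0.353, and the estimation of the weights did not converge.

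**Figure D4:**
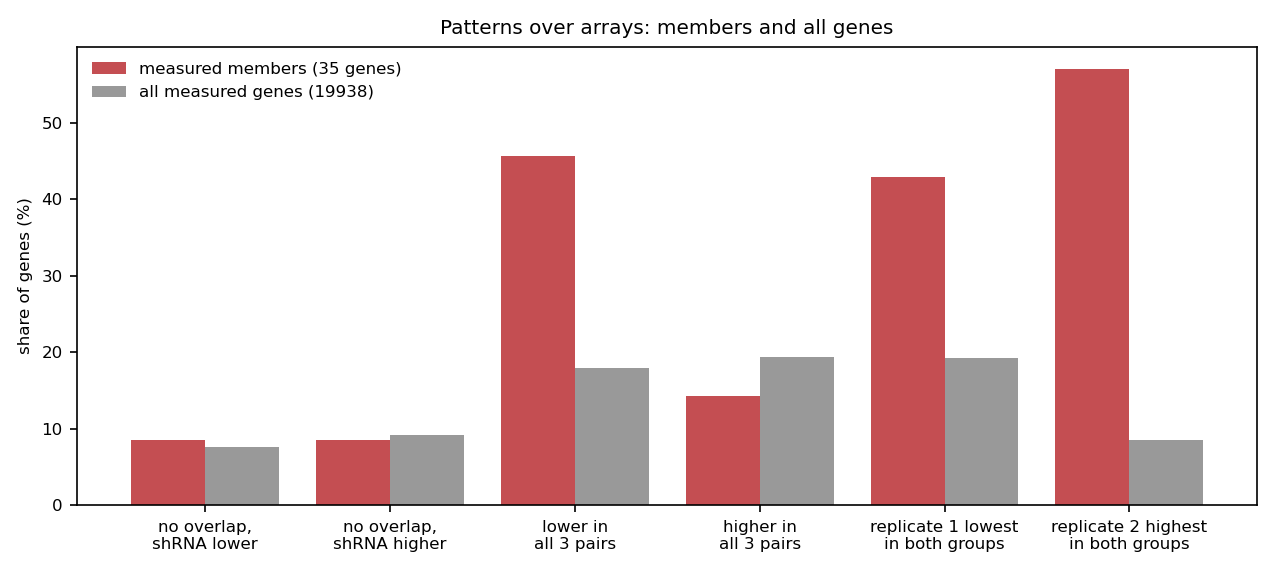
Share of genes (%) that show each pattern over the 6 arrays, for the 35 measured members (red, left) and for all 19938 measured genes (grey, right). Members and all genes are close for patterns without overlap, whereas 45.7% of members against 18.0% of all genes were lower in all 3 same-number pairs, and 57.1% against 8.56% were highest in replicate 2 of both groups.

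Scramble replicate 1 stood nearer to the shRNA arrays (Pearson r over all probes 0.990 to 0.993) than to the other scramble arrays (0.987 to 0.988). Genes of mitosis differed along the same arrays. The mean log2 signal of the 18 measured of 19 listed was 12.08, 11.96 and 11.91 in shRNA replicates 1 to 3, against 11.96, 11.20 and 10.78 in scramble replicates 1 to 3. All 18 means were higher in shRNA cells, against 10171 of all 19938 genes, and the median difference was 0.71. Sympathoadrenal markers of the N2A line were present, with 12 of 14 measured, 11 of them above the array medians, and list means of 10.66, 10.43 and 10.34 in shRNA cells, against 10.98, 11.04 and 10.74 in scramble cells. Of these 12 markers 10 had lower (against 49.0% of all genes) and 2 higher means in shRNA cells, with a median difference of -0.22. At unadjusted p under 0.05 in limma, 4 lay lower (against 5.46% of all genes). The 4 were Dbh at -1.34 and Th at -1.08, enzymes of catecholamine synthesis, the granin Chgb at -1.01 and the vesicular monoamine transporter Slc18a1 at -0.97 (limma adjusted p = 0.433, 0.363, 0.297 and 0.344). Markers of other cell types, listed for glia, epithelium, macrophages and fibroblasts, averaged 6.40 to 7.84 in shRNA cells and 6.45 to 7.95 in scramble cells. Below the array medians lay 4 of 6 glial, 4 of 5 epithelial and 6 of 7 macrophage markers, but only 3 of 8 fibroblast markers. By this measure most fibroblast markers were not dim either. The part of these lists and arrays in the members' values was not tested. In a bulk sample, a lower signal per gene cannot be told apart from fewer cells that express it.

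Genes next to the members in the pathway differed little as groups. Of 25 other genes of glycolysis and gluconeogenesis 20 were measured, with a median log2 difference of -0.05. Of these, 1 was higher and 0 lower at unadjusted p under 0.05, against 6.22% and 5.46% of all genes. That one was Tigar, which breaks down fructose-2,6-bisphosphate, with 10.84, 10.95 and 10.74 in shRNA cells, against 10.53, 10.41 and 10.48 in scramble cells. Its difference was 0.37 (SE 0.09, limma adjusted p = 0.379). In the pentose phosphate pathway, which branches off after hexokinase, 6 of 7 genes were measured with a median of 0.01. The epimerase Rpe, at 0.43 (SE 0.12, limma adjusted p = 0.394), was higher at unadjusted p under 0.05 (against 6.22% of all genes).

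All 14 listed HIF subunits and oxygen-sensing factors other than the members were measured, with a median log2 difference of -0.01. One of them, Os9, a lectin of endoplasmic reticulum quality control that also binds HIF-1alpha, was lower at unadjusted p under 0.05 (against 5.46% of all genes). Its signals were 11.15, 11.21 and 11.04 in shRNA cells, against 11.51, 11.67 and 11.63 in scramble cells (difference -0.47, SE 0.09, limma adjusted p = 0.348). Of 35 symbols of further hypoxia-induced genes 32 were measured, with a median of -0.07. The shRNA array was lower in all 3 pairs for 11 of these 32 (against 18.0% of all genes) and higher in all 3 for 0 (against 19.4%). One was lower at unadjusted p under 0.05 (against 5.46% of all genes), the mitochondrial gene Fam162a. It had 11.03, 10.38 and 9.93 in shRNA cells, against 11.20, 11.66 and 11.02 in scramble cells. The groups overlapped slightly, and the difference was -0.85 (SE 0.30, limma adjusted p = 0.437).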

How the data were processed

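RNA from 6 N2A cultures was hybridised to 6 arrays. The authors deposited normalised log2 values for 35556 probes; the normalisation method is not given in the sources used here, and the submitters' notes name limma. No detection calls or depths come with log2 signals, and the 3 arrays per group limit the precision. Of the probes, 21789 carried 1 gene symbol, 1621 several and 12146 none; a gene took its brightest probe with a single symbol. Limma 3.58.1 in R 4.3.3 was fitted to all probes with the construct as the only term. Tests were two-sided, and p-values were adjusted over the whole table by Benjamini-Hochberg. Calls needed both an adjusted p under 0.05 and a log2 difference over 0.5 in size, applied after the adjustment. The methods state instead that only probes with a variance between conditions over 0.5 were considered, and that filter was not reproduced. The paper reports differentially expressed genes, whereas this fit called 0.00% of all genes. The lowest adjusted p over all genes was 0.297, so the size criterion removed no gene. The fit was checked on simulated data. Groups and replicate numbers came from the labels, which call the samples biological replicates.

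The labels number the replicates alike in both groups, and same-number arrays were taken as pairs, although the labels do not say what these arrays share. Deviations from the group means correlated at 0.291, 0.137 and 0.103 for arrays numbered 1, 2 and 3. Since shRNA replicate 2 with scramble replicate 3 gave 0.199, these correlations are weak ground for the pairing. Members given in full had an unadjusted p under 0.05, groups without overlap and a log2 difference over 0.3 in size, or were among the 8 largest differences; Hif1a, Slc2a1, Ldha, Pdk1 and Ndrg1 were added after their values were seen. Of each neighbouring pathway list, up to 4 genes with the lowest unadjusted p under 0.05 were named. Members and lists were chosen with earlier results of these data known. Alternatives were the replicate block, quantile normalisation, centring on the median, a trended robust variance, array weights, the mean of a gene's probes, the brighter probes only, no size criterion, and arrays left out. Promoter windows held 250 bases and were taken from RefSeq, GRCm38.p6, for 32 of 35 measured members.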

Additional observations from a re-analysis of the deposited data

How the results depend on the processing

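The median differences of the members, the glycolytic enzymes and the other hypoxia-induced genes kept their direction under every alternative tried. So did the 10 members that met the rule for being given in full, wherever they were measured. The direction of the other members was not followed through the alternatives. With the replicate number as a block, 10 members lay lower at unadjusted p under 0.05 (against 7.35% of all genes), in place of 5, and no other count moved by over 1.5 times. Centring each array on its median gave 3 lower (against 3.68% of all genes). Array weights gave 6 called (against 6.62% of all genes) and 15 lower (against 15.1%). The brighter probes alone gave 1 higher, in place of 2 (against 10.1% of the genes left), because the dim Egln3 was not among them. Without both arrays of replicate 1, 8 members lay lower (against 8.94% of all genes) and 15 had all shRNA arrays below all scramble arrays (against 29.2%). The causes were not tested, apart from the fewer arrays or genes that the last 2 settings hold by construction. Leaving out 1 array at a time gave 1 to 9 members lower (against 2.88% to 8.03% of all genes), 2 higher throughout, and 0 called. Below without overlap lay 3 to 14 members, the 14 without scramble replicate 1 (40.0%, against 19.7% of all genes). Above without overlap lay 3 to 5, the 5 without scramble replicate 2 (14.3%, against 11.4% of all genes). With all 6 arrays the shares of all genes were 7.63% below and 9.13% above. With 1 array left out the median log2 difference ran between -0.18 and -0.04 for the members, -0.20 and -0.11 for glycolytic enzymes, and -0.29 and -0.04 for the other hypoxia-induced genes. It was smallest without scramble replicate 2 for each of these. Aldoc ran between -2.27 and -1.14, Eno2 between -1.69 and -0.91, Bnip3 between -1.49 and -0.65, and Egln3 between 0.84 and 1.30. Outside array weights no member reached an adjusted p under 0.05 in limma, the lowest being 0.0614 for Egln3 without scramble replicate 1. With no detection calls, values near or below the array median can only be read as dim.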

Other observations

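Pyruvate enters the citric acid cycle through pyruvate dehydrogenase or, by carboxylation, through Pcx. Of 29 genes of this entry and of the cycle 27 were measured, with a median log2 difference of 0.01. At unadjusted p under 0.05 in limma 4 were higher and 2 lower in Pbcas4 shRNA cells, against 6.22% and 5.46% of all genes. Dlat, a core subunit of pyruvate dehydrogenase, had 11.93, 11.90 and 11.87 in shRNA cells, against 11.69, 11.33 and 11.37 in scramble cells, a difference of 0.43 (SE 0.12, limma adjusted p = 0.393). Pdp1, the phosphatase that reactivates that complex, had 11.38, 11.44 and 11.41 in shRNA cells, against 11.65, 11.71 and 11.74 in scramble cells (difference -0.29, SE 0.08, limma adjusted p = 0.393). Neither gene's groups overlapped. Dlst, a subunit of the 2-oxoglutarate dehydrogenase complex, differed by 0.31 and Pcx by -0.33.

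MYC and MXD proteins, among them Mxi1, compete for the partner Max. All 14 listed genes were measured, with a median log2 difference of -0.03, and 2 were lower at unadjusted p under 0.05 in limma (against 5.46% of all genes). Mxd4, a MYC antagonist of cells that leave the cycle, had 9.33, 10.31 and 10.04 in shRNA cells, against 10.29, 10.88 and 10.97 in scramble cells, so that the groups overlapped by a small margin (difference -0.82, SE 0.29, limma adjusted p = 0.444). Mlxip, a glucose-sensing partner of MLX, differed by -0.31 (SE 0.12).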
